A study of Homo sapiens and Mus musculus with 213 samples.

Results

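The genes described here encode proteins that carry out or steer pre-mRNA splicing. They were chosen by symbol: protein-coding genes whose GENCODE symbol starts with SRSF, HNRNP, SF3A, SF3B, PRPF, SNRP or U2AF, together with LSM1 to LSM8. The rule found 84 members among the 58336 genes listed in every RNA-seq library. Of these, 80 reached a mean normalized count of 10 over the 9 libraries and were tested with 20884 genes in all. The other 4 were SNRPN, HNRNPCL2, HNRNPCL3 and HNRNPCL4, none of which exceeded 9.23 normalized counts in any library.

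Introns are removed by the spliceosome, which is built from small nuclear ribonucleoproteins (snRNPs). Each snRNP holds a small nuclear RNA inside a ring of Sm proteins, or of LSM proteins in the case of U6, and carries proteins of its own. U1 marks the start of an intron, U2AF and the U2 snRNP with its SF3A and SF3B subunits mark its end, and PRPF proteins hold the U4, U5 and U6 particles together and drive the rearrangements that lead to catalysis. SR proteins (SRSF genes) mostly promote the use of nearby splice sites, hnRNP proteins often repress them, and many of both groups adjust their own mRNA through alternative splicing.

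RNA was compared between 3 HEK293T lines, a human embryonic kidney line, with 3 libraries each. MYC WT carried the unedited G-quadruplex (G4) motif upstream of MYC, a four-stranded fold of guanine-rich DNA. In MYC MUT the guanine runs of that motif were changed by CRISPR editing so that the G4 no longer folds, and in SWP the motif was replaced by a G4-forming motif from the promoter of another gene. Both edited lines were homozygous populations grown from sorted single cells, so each is a model made from clones, and the number of clones behind its 3 libraries was not given in the sources used here. No treatment was given in the labels for any line. Values are the authors' size-factor normalized counts, and fold changes are differences of log2(normalized count + 1).

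The files resolved to between 65024354 and 98497026 reads on genes per library. MYC itself, the edited gene, stood at 20020, 28396 and 21580 normalized counts in MYC WT, at 10693, 11176 and 12400 in MYC MUT, and at 14480, 24743 and 25245 in SWP. All MYC MUT libraries were below all others, at 49.0% of the MYC WT mean (log2 fold change -1.02 ± 0.19 SE, limma adjusted p = 0.00182, exact two-sided permutation p = 0.10, the smallest that 3 against 3 allows). SWP overlapped MYC WT (log2 fold change -0.15 ± 0.19, limma adjusted p = 0.712). Genes that HEK293 cells are known to express were abundant in every library, their 5 markers summing to between 79820 and 99150 normalized counts. MYC WT replicate 1 and SWP replicate 1 lay farthest from the other libraries of their lines, with a chi-square per degree of freedom of at least 38.44 against them, beside 24.45 and 12.14 between the remaining pair of each line. The MYC WT headers carry a sequencing code that is absent from those of the edited lines. Whether the edited lines were sequenced in another pool was not given in the sources used here. Any such difference could not be told apart from editing.

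Most splicing genes differed little between MYC MUT and MYC WT. A gene was called at a limma adjusted p below 0.05 and an absolute log2 fold change above 0.5. By that rule 6 of the 80 members (7.5%) were called, against 21.4% of all genes tested. Abundant genes were called less often: 12.5% of the 1141 genes with a mean of at least 13200 normalized counts, beside 4 of the 40 members at that level. The 5 lower were SF3B5, SF3A3, SNRPD2, HNRNPUL1 and SNRPA (10.1% of all genes were called lower), and the only member higher was SRSF6 (11.3% were called higher). Leaving out MYC WT replicate 3 gave 3 calls, all lower. With values rescaled to equal library totals the split was 2 higher and 2 lower, and with equal upper quartiles it was 2 higher and 3 lower. Among all genes the main scaling gave 2365 higher and 2111 lower, and equal totals gave 2874 and 1600. SNRPA, HNRNPUL1 and SNRPD2 lie near one another on chromosome 19, between bases 40750637 and 45692569. The nearest tested members on either side, HNRNPL (-0.18) and PRPF31 (-0.37), were not called. SRSF6 is on chromosome 20, as is PRPF6 (0.35), which did not reach the fold threshold. The other called members, SF3B5 and SF3A3, are on chromosomes 6 and 1. Whether chromosomal position has a part in any of these changes was not tested.

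Without the fold threshold, 27 members passed the adjusted p (33.8%, against 38.4% of all genes). Of these, 21 were lower in MYC MUT (26.2%, against 19.8% of all genes) and 6 were higher (7.5%, against 18.6%). Equal library totals gave 16 lower and 10 higher. In 29 members every MYC MUT library was below every MYC WT library (36.2%, against 26.4% of all genes), and in 10 every one was above (12.5%, against 25.9%). The members' median log2 fold change was -0.09, beside -0.0034 for all genes. It was also -0.09 over the 1141 genes of any kind with a mean of at least 13200 normalized counts, the level of the middle member. The median size of the change, regardless of direction, was 0.18 for members, 0.27 for all genes and 0.19 for those 1141 genes.

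**Figure D1:**
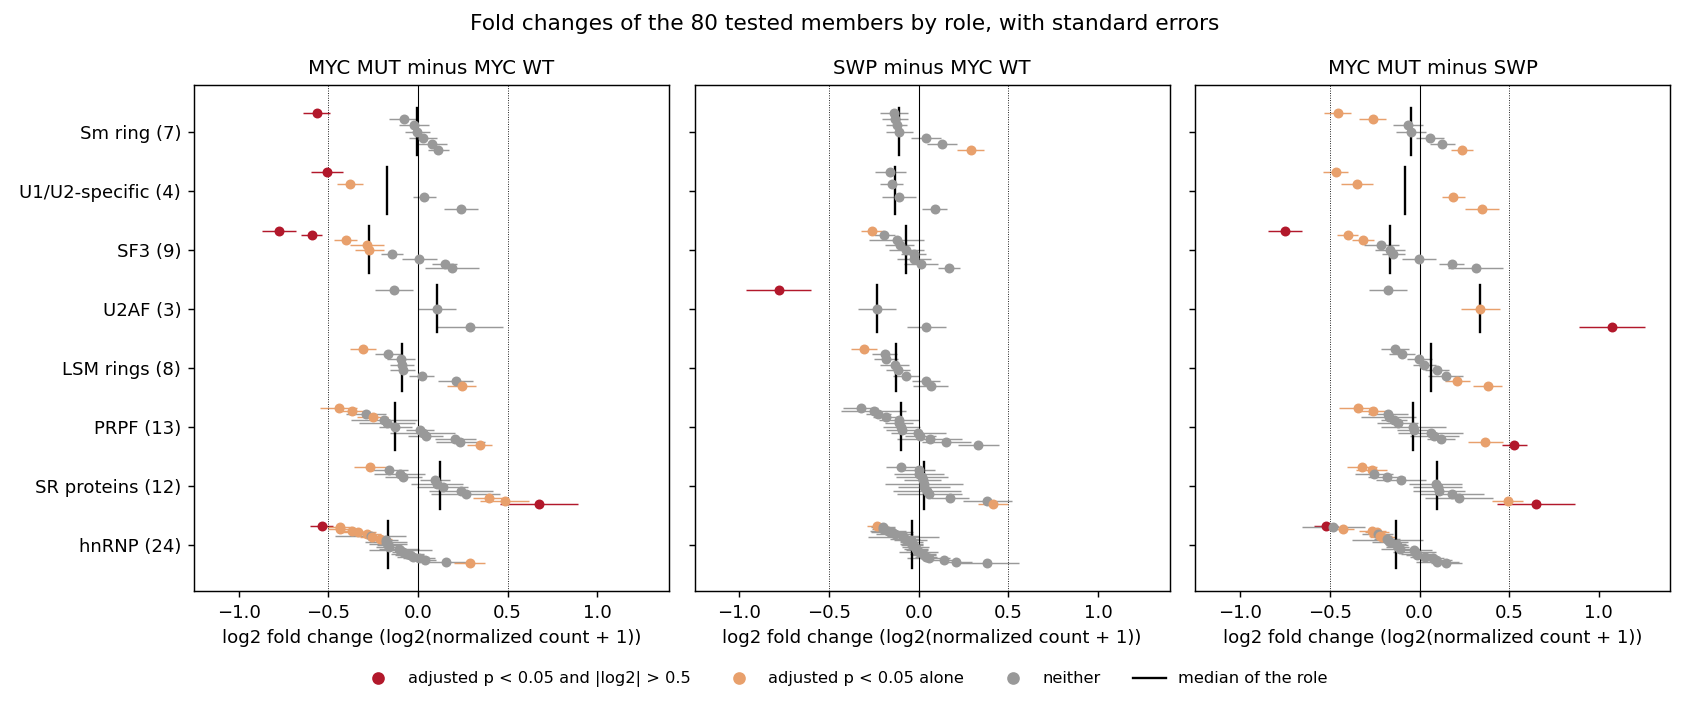
Log2 fold changes of the 80 tested members by role in the 3 comparisons, with standard errors as horizontal bars and the median of each role as a black tick; the numbers in brackets are genes tested and the dotted lines mark 0.5. Red points passed the adjusted p and the fold threshold (6, 1 and 5 members), orange points the adjusted p alone, and most members lie within 0.5 of zero.

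The U2 snRNP subunits of the SF3 class held the largest falls. SF3B5 is a small SF3B subunit encoded by a gene on chromosome 6 (chr6:144094884-144095573, minus strand, hg38). Its normalized counts were 9647, 7531 and 9900 in MYC WT, 5087, 5201 and 5406 in MYC MUT, and 9052, 8477 and 8894 in SWP. MYC MUT lay below both other lines without overlap, at 58.0% of MYC WT (log2 fold change -0.78 ± 0.09 SE, n = 3 per line, limma adjusted p = 0.000101). SF3A3, a subunit of the SF3A trimer (chr1:37956975-37990075, minus strand), read 16060, 15683 and 17107 in MYC WT and 11030, 10615 and 10726 in MYC MUT. SWP was intermediate at 14741, 13814 and 14203. The 3 lines did not overlap one another, and MYC MUT stood at 66.3% of MYC WT (log2 fold change -0.59 ± 0.06, limma adjusted p = 2.82e-05). Both calls held under all 20 alternatives run, with SF3B5 between -0.90 and -0.70 and SF3A3 between -0.62 and -0.52.

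A further 3 SF3 genes passed the adjusted p with smaller falls. SF3B1, the largest SF3B subunit and the one that clamps the branch site, read 54656, 52698 and 52822 in MYC WT, 41833, 40945 and 38371 in MYC MUT, and 47401, 44734 and 41967 in SWP. Every library of both edited lines was below every MYC WT library (log2 fold change in MYC MUT -0.40 ± 0.07, limma adjusted p = 0.000723). SF3A1 and SF3A2, the other SF3A subunits, changed by -0.27 ± 0.08 and -0.28 ± 0.10 (limma adjusted p = 0.023 and 0.0381). SF3B2, SF3B3, SF3B4 and SF3B6 did not pass, with log2 fold changes of -0.14, 0.01, 0.19 and 0.15. All 3 SF3A genes were therefore lower, whereas the 6 SF3B genes ran from -0.78 to 0.19, and the class median was -0.27.

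Promoter sequences are given for the genes with the largest SF3 falls, for SF3B1 and HNRNPUL1, which were lower in MYC MUT and have a promoter with the E-box CACGTG, the letters that MYC and its partner MAX are known to bind, and for SRSF6, the only member called higher. Each runs from 250 bases before to 50 bases after a RefSeq start site in GRCh38.p14, is written 5′ to 3′ on the strand of the gene, and has CACGTG in capitals. SF3B5 is at chr6:144095524-144095823 (minus), SF3A3 at chr1:37989973-37990272 (minus), SF3B1 at chr2:197434979-197435278 (minus, 1 of 2 start sites in the table), HNRNPUL1 at chr19:41262307-41262606 (plus, 1 of 3 start sites in the table) and SRSF6 at chr20:43457646-43457945 (plus).
SF3B5: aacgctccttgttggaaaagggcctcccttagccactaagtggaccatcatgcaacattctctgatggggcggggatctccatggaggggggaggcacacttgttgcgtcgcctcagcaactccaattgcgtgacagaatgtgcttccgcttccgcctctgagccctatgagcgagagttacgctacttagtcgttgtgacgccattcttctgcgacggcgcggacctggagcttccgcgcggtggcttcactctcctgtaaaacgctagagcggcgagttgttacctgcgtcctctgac
SF3A3: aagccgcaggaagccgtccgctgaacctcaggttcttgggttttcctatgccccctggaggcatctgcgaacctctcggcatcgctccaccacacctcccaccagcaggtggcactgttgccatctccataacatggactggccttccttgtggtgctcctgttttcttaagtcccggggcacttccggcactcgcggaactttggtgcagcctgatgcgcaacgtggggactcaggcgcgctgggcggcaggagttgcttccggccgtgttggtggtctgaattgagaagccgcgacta
SF3B1: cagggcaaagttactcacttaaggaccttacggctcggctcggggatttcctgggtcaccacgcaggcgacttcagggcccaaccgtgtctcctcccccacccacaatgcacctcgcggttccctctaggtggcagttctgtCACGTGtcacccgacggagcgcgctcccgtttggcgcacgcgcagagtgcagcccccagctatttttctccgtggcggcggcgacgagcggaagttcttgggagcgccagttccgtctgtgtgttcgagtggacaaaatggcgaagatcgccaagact
HNRNPUL1: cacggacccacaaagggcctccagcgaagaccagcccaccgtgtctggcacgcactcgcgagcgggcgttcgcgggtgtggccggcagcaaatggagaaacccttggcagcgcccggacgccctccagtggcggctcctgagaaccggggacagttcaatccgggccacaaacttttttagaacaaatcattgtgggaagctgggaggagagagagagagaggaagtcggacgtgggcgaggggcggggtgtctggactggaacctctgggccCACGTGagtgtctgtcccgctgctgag
SRSF6: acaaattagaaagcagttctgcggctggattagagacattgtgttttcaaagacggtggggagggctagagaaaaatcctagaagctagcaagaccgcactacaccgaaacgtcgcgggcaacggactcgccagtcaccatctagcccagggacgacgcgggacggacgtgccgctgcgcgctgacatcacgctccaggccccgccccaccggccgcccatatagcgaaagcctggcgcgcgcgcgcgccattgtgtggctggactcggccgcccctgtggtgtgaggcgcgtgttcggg

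CACGTG reads the same on both strands. It begins 108 bases before the SF3B1 start site shown and at base 24 after the HNRNPUL1 start site shown, and these letters do not occur in the SF3B5, SF3A3 and SRSF6 windows. Promoters were found for 72 of the 84 members by symbol. At least 1 window held CACGTG for 8 of those 72 (11.1%), beside 8.77% of the 27305 genes in the table, and the 8 were SF3B1, HNRNPA3, HNRNPD, HNRNPDL, HNRNPH2, HNRNPH3, HNRNPM and HNRNPUL1. Of the 8, SF3B1, HNRNPA3, HNRNPH2 and HNRNPUL1 passed the adjusted p as lower in MYC MUT (the HNRNPA3 and HNRNPH2 promoters are not printed), and the median log2 fold change of the 8 was -0.19. Of the 61 tested members whose windows lacked it, 15 were lower by the same rule and the median was -0.08, and 19.8% of all genes tested were lower by it. These matches describe letters and do not show binding.

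In the Sm ring, which the U1, U2, U4 and U5 snRNPs share, a single subunit fell. SNRPD2 (chr19:45687460-45692569, minus strand) read 21342, 22651 and 25272 in MYC WT, 14927, 15209 and 16608 in MYC MUT, and 20536, 21811 and 21732 in SWP. MYC MUT was below both other lines in every library, at 67.5% of MYC WT (log2 fold change -0.57 ± 0.075, limma adjusted p = 0.000179). That call was lost with equal library totals (-0.49) and without MYC WT replicate 3 (-0.50), where the change no longer exceeded the fold threshold.

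SNRPB, which encodes the Sm proteins B and B′, read 43424, 38238 and 48884 in MYC WT, 46057, 44062 and 47276 in MYC MUT, and 48521, 45906 and 47743 in SWP. The lines overlapped (log2 fold change 0.08 ± 0.08 in MYC MUT, limma adjusted p = 0.485). SNRPD1, whose product pairs with that of SNRPD2 in the ring, read 10798, 9083 and 10272 in MYC WT, 10300, 9999 and 9713 in MYC MUT, and 9090, 9353 and 9019 in SWP. MYC MUT and MYC WT overlapped as well (log2 fold change -0.0034 ± 0.07, limma adjusted p = 0.974). SNRPD3, SNRPE, SNRPF and SNRPG ranged from -0.08 to 0.11 and did not pass. Over the 7 tested Sm genes the median log2 fold change was -0.0034.

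SNRPN, the Sm gene of neurons, was listed at 0 in 7 of the 9 libraries and at 1 read in MYC MUT replicates 2 and 3. Its annotated exons share 813 bases on the same strand with SNURF, which was listed at 0 throughout. The counting rule for shared bases was not given in the sources used here.

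Of the 4 proteins particular to U1 or U2, 2 were lower in MYC MUT by the adjusted p (50%, against 19.8% of all genes). SNRPA, the U1 protein that binds a stem-loop of U1 snRNA (chr19:40750637-40765389, plus strand), read 12626, 15017 and 14400 in MYC WT, 9406, 9810 and 10344 in MYC MUT, and 11173, 13104 and 13441 in SWP. All MYC MUT libraries were the lowest, at 70.3% of MYC WT (log2 fold change -0.51 ± 0.09, limma adjusted p = 0.00108). The value sat at the fold threshold, and 7 of the 20 alternatives ended the call while keeping the adjusted p at 0.00726 or less, with log2 fold changes from -0.58 to -0.43. SNRPA1, a U2 protein, was lower by the adjusted p alone (-0.38 ± 0.07, limma adjusted p = 0.00164). Its partner SNRPB2 and the U1 protein SNRPC did not pass, at 0.24 ± 0.10 and 0.04 ± 0.06.

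**Figure D2:**
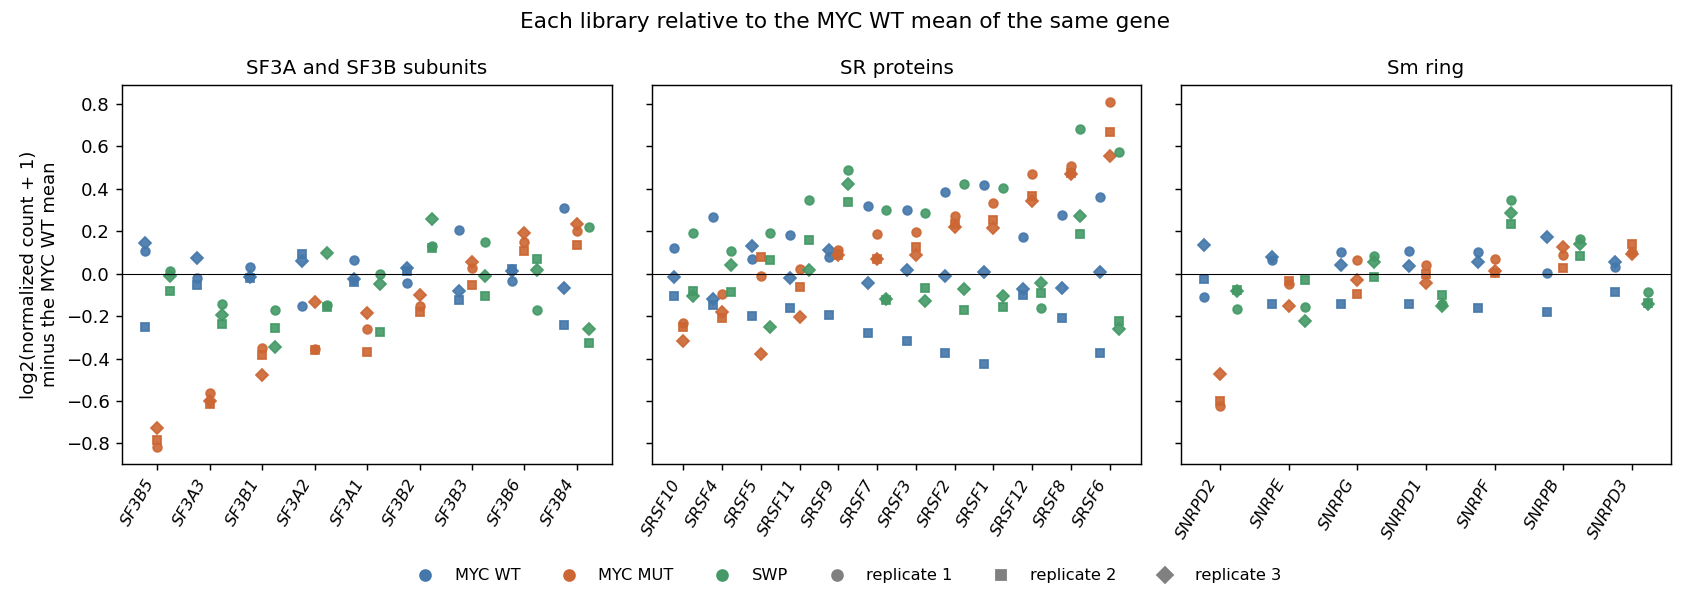
Log2 level of each library relative to the MYC WT mean of the same gene for the SF3 subunits, the SR proteins and the Sm ring, genes ordered by their change in MYC MUT, with marker shape giving the replicate. SF3B5, SF3A3 and SNRPD2 in MYC MUT lie apart from the other lines, while for most SR genes replicate 1 of MYC WT and of SWP (circles) lies above replicates 2 and 3.

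The U2AF heterodimer contacts the end of the intron. U2AF2, the large subunit that binds the polypyrimidine tract, read 38830, 30337 and 37121 in MYC WT, 32574, 31237 and 32617 in MYC MUT, and 41721, 31912 and 35913 in SWP. The lines overlapped, with log2 fold changes of -0.13 ± 0.11 in MYC MUT and 0.04 ± 0.11 in SWP (limma adjusted p = 0.362 and 0.862).

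U2AF1, the small subunit that reads the intron's last bases, had few reads. It stood at 97.4, 76.3 and 85.7 normalized counts in MYC WT, 112.8, 96.2 and 108.1 in MYC MUT, and 57.3, 39.4 and 54.2 in SWP. SWP was below both other lines in every library, while MYC MUT and MYC WT overlapped (log2 fold change 0.29 ± 0.18, limma adjusted p = 0.233). In the hg38 sequence 7 of the 8 exons of its canonical transcript (chr21:43092956-43107570, minus strand), 825 of 945 bases, have a second identical copy on chromosome 21. Reads from those exons cannot be assigned to 1 place, and the U2AF1 counts are uncertain for that reason. U2AF1L4, a related gene, did not pass in MYC MUT (0.11 ± 0.11).

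The LSM proteins form a nuclear ring on U6 snRNA (LSM2 to LSM8) and a cytoplasmic ring that takes part in mRNA decay (LSM1 to LSM7). None of the 8 was called. LSM8, the subunit particular to the nuclear ring, was lower by the adjusted p alone, at 3588, 3733 and 3907 in MYC WT against 3156, 3105 and 2838 in MYC MUT (log2 fold change -0.30 ± 0.07, limma adjusted p = 0.00648). In SWP it was 2991, 3216 and 2893, so both edited lines lay below MYC WT without overlap. LSM3 was higher in MYC MUT (0.25 ± 0.08, limma adjusted p = 0.0325), and LSM1, particular to the cytoplasmic ring, did not pass (0.21 ± 0.10). The 8 genes ran from -0.30 to 0.25 with a median of -0.09.

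PRPF factors also moved in both directions, and none of 13 was called against MYC WT. PRPF6, which bridges the U5 particle to the U4/U6 particle (chr20:63981132-64033100, plus strand), read 12509, 11323 and 12235 in MYC WT, 15249, 14807 and 15744 in MYC MUT, and 11075, 9762 and 10950 in SWP. The 3 lines did not overlap. MYC MUT was above MYC WT by 0.35 ± 0.07 (limma adjusted p = 0.00255), short of the fold threshold. PRPF8, the protein at the catalytic centre, read 90246, 94956 and 80937 in MYC WT, 91084, 83203 and 100337 in MYC MUT, and 73782, 63067 and 76237 in SWP. MYC MUT and MYC WT overlapped (0.04 ± 0.10, limma adjusted p = 0.751), and SWP lay below both.

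Members of the class that passed the adjusted p as lower in MYC MUT were PRPF38A (-0.44 ± 0.10), PRPF31 (-0.37 ± 0.07) and PRPF18 (-0.25 ± 0.09). PRPF38A acts before the spliceosome is activated, and PRPF31 holds U4 and U6 together. PRPF4, another U4/U6 protein, read 10140, 7001 and 8075 in MYC WT, 10383, 9331 and 9685 in MYC MUT, and 11127, 8310 and 8557 in SWP. The lines overlapped, and it did not pass (0.24 ± 0.14, limma adjusted p = 0.195).

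SR protein genes were the only class of more than 3 genes with a median above zero, 0.12 over 12 genes. SRSF6, an SR protein that binds exonic enhancers (chr20:43457893-43466046, plus strand), read 21226, 12753 and 16598 in MYC WT, 28909, 26203 and 24271 in MYC MUT, and 24544, 14127 and 13767 in SWP. Every MYC MUT library was above every MYC WT library, at 157.0% of the MYC WT mean, but MYC WT spread from 12753 to 21226 (log2 fold change 0.68 ± 0.22, limma adjusted p = 0.0297). DESeq2 on the recovered reads gave an adjusted p of 0.0634. The call was also lost without the variance trend and without each of 5 single libraries (MYC WT replicates 2 and 3 and MYC MUT replicates 1, 2 and 3), and over all alternatives the log2 fold change ran from 0.49 to 0.86 and the adjusted p from 0.000502 to 0.117. SRSF6 exons share 654 bases on the same strand with another protein-coding gene model that has no symbol, so its reads may be split.

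SRSF8 and SRSF12 were also higher by the adjusted p alone, by 0.48 ± 0.14 and 0.39 ± 0.09 (limma adjusted p = 0.0163 and 0.00439). SRSF10 and SRSF12 are known as SR proteins that can repress splicing, and SRSF10 was lower in MYC MUT (-0.27 ± 0.09, limma adjusted p = 0.0333). With equal totals or equal upper quartiles SRSF8 passed the fold threshold and was called higher.

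SRSF1, the founding SR protein, read 58809, 32704 and 44156 in MYC WT, 55328, 52352 and 51041 in MYC MUT, and 58135, 39400 and 40859 in SWP. MYC MUT lay inside the range of MYC WT (log2 fold change 0.27 ± 0.19, limma adjusted p = 0.295). Without MYC WT replicate 1 the change was 0.48 (limma adjusted p = 0.0376), and without replicate 2 it was 0.05. Of the 5781 exon bases of SRSF1, 1890 are shared on the same strand with a gene model that has no symbol. SRSF3, a small SR protein also known in mRNA export, read 56730, 37024 and 46686 in MYC WT, 52903, 50364 and 49029 in MYC MUT, and 56213, 44058 and 42242 in SWP, and the 3 lines overlapped (0.14 ± 0.14, limma adjusted p = 0.48).

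Of the 24 hnRNP genes tested, 20 had a log2 fold change below zero in MYC MUT, beside 10507 of all 20884 genes. By the adjusted p 8 were lower (33.3%, against 19.8% of all genes) and 1 was higher (4.17%, against 18.6%). The 8 include HNRNPA1 and its retrogene copies HNRNPA1L2 and HNRNPA1L3, which may share reads and so may not be separate observations. The same holds for HNRNPUL2-BSCL2 and HNRNPUL2, both among the 20, since 2391 of the 4001 exon bases of HNRNPUL2-BSCL2 are shared with HNRNPUL2. In 14 of the 24 every MYC MUT library was below every MYC WT library (58.3%, against 26.4%). The median log2 fold change of the 24 was -0.17, with a range from -0.54 to 0.29. Over the 1141 genes of any kind with a mean of at least 13200 normalized counts the median was -0.09. Equal library totals shifted the median of all genes from -0.0034 to 0.07 and so raised every value by about that much.

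HNRNPUL1, an RNA-binding protein also known in the DNA damage response (chr19:41262496-41307787, plus strand), was the only one called. It read 39329, 43266 and 41037 in MYC WT, 27850, 27868 and 29445 in MYC MUT, and 39860, 39344 and 43072 in SWP. All MYC MUT libraries were the lowest, at 68.9% of MYC WT (log2 fold change -0.54 ± 0.065, limma adjusted p = 9.53e-05), and SWP overlapped MYC WT. The call was lost with equal totals (-0.46) and equal upper quartiles (-0.50), through the fold threshold and not the adjusted p. HNRNPR, another gene of the class, changed by -0.44 ± 0.06 (limma adjusted p = 0.000339).

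HNRNPA1, which binds exonic and intronic silencers, read 35744, 34964 and 36436 in MYC WT, 27710, 28144 and 27340 in MYC MUT, and 29283, 31644 and 30379 in SWP. The 3 lines did not overlap, and MYC MUT was the lowest (log2 fold change -0.36 ± 0.06, limma adjusted p = 0.000549). The annotation holds 74 pseudogenes named after HNRNPA1, and its retrogene copies HNRNPA1L2 and HNRNPA1L3 changed by -0.33 ± 0.10 and -0.44 ± 0.07, so reads of the 3 genes may be split among them.

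HNRNPA2B1, its close relative and the most abundant member per length, read 217701, 203937 and 215173 in MYC WT, 176758, 182940 and 173210 in MYC MUT, and 205484, 208026 and 206317 in SWP. MYC MUT was below both other lines in every library (log2 fold change -0.26 ± 0.06, limma adjusted p = 0.00862). HNRNPC, which binds uridine tracts of nascent RNA, read 36699, 31831 and 34826 in MYC WT, 31560, 30087 and 30562 in MYC MUT, and 37474, 34157 and 33241 in SWP. MYC MUT was again lowest in every library, but the change did not pass (-0.16 ± 0.07, limma adjusted p = 0.0979). HNRNPH2 and HNRNPA3 were lower, with log2 fold changes of -0.28 ± 0.075 and -0.21 ± 0.06 (limma adjusted p = 0.012 and 0.0234), and HNRNPA0, an intronless member known for binding AU-rich mRNA, was higher by 0.29 ± 0.09 (limma adjusted p = 0.0207). Of the 6541 exon bases of HNRNPA3, 3509 are shared with NFE2L2 on the opposite strand, and the strand setting of the counting is not known.

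**Figure D3:**
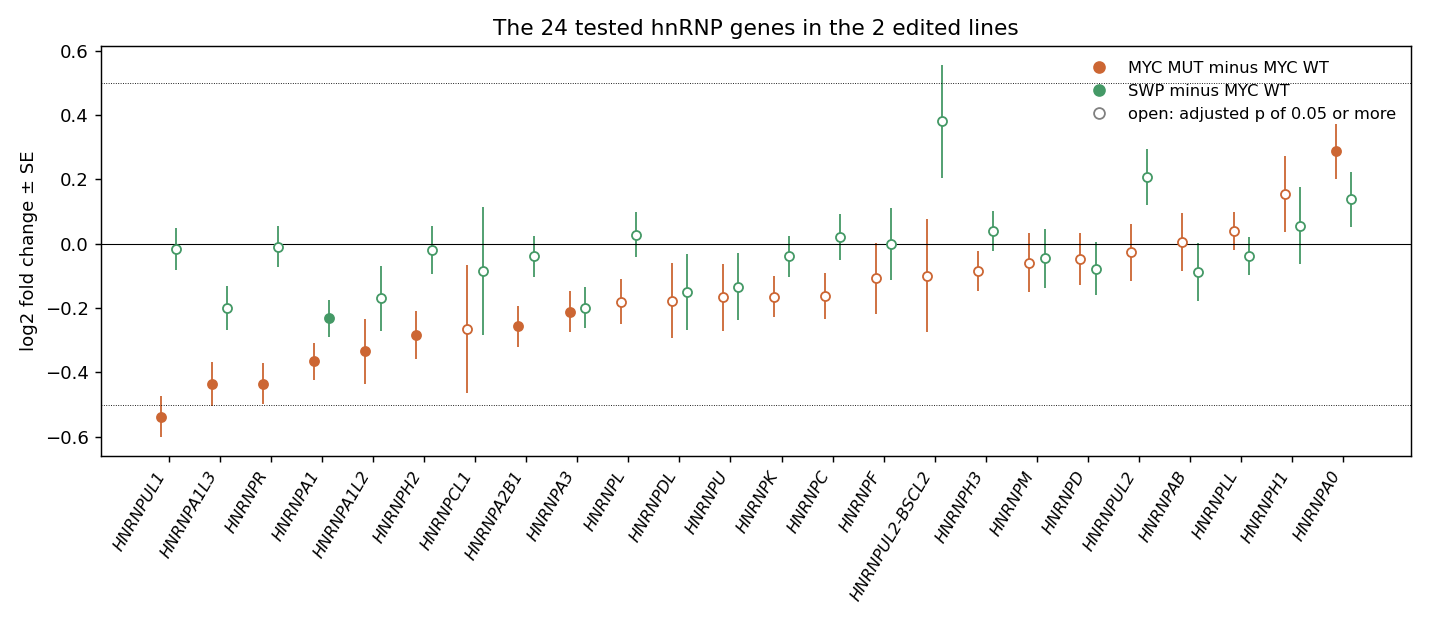
Log2 fold change and standard error of the 24 tested hnRNP genes in MYC MUT (orange) and SWP (green), each against the same 3 MYC WT libraries; filled points passed an adjusted p of 0.05 and dotted lines mark 0.5. In MYC MUT 8 filled points lie below zero and 1 above, and in SWP the only filled point is HNRNPA1.

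The second comparison set SWP against the same MYC WT libraries, so the MYC MUT and SWP contrasts share their controls and are given side by side. Among the 1141 genes with a mean of at least 13200 normalized counts 1.05% were called, and 0 of the 40 members at that level. U2AF1 was the only member called, 1 of 80 (1.25%, against 5.13% of all genes, 2.98% lower and 2.15% higher). Its SWP mean was 58.2% of MYC WT (log2 fold change -0.78 ± 0.18, limma adjusted p = 0.0202), on the uncertain counts described above. The call was lost when the fit held only these 6 libraries (limma adjusted p = 0.0736), and also on dropping any of 3 single libraries, namely SWP replicate 2 or replicates 1 and 3 of MYC WT, where the adjusted p stayed below that value. With MYC WT replicate 1 dropped SRSF8 was called higher instead.

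Without the fold threshold 6 members passed (7.5%, against 9.97% of all genes), 4 of them lower (5%, against 5.48%) and 2 higher (2.5%, against 4.49%). The 4 lower were U2AF1, SF3B1 (-0.26 ± 0.07), LSM8 (-0.30 ± 0.07) and HNRNPA1 (-0.23 ± 0.06). The 2 higher were SRSF9 and SNRPF. SRSF9, an SR protein, read 28698, 23720 and 29373 in MYC WT, 29299, 28888 and 28882 in MYC MUT, and 38069, 34297 and 36368 in SWP, above both other lines in every SWP library (log2 fold change 0.42 ± 0.08, limma adjusted p = 0.00893). Of its 3957 exon bases, 1725 are shared with GATC on the opposite strand, and the strand setting of the counting is not known. SNRPF, a Sm ring subunit, read 6953, 5790 and 6722 in MYC WT, 6781, 6481 and 6535 in MYC MUT, and 8235, 7619 and 7880 in SWP, again highest in every SWP library (0.29 ± 0.08, limma adjusted p = 0.0332). Equal library totals gave 4 higher and 1 lower in place of 2 and 4. The count fell to 1 on leaving out MYC WT replicate 3, to 2 on leaving out SWP replicate 3, and to 3 on leaving out SWP replicate 2 or either of the first pair of MYC MUT libraries (replicates 1 and 2). Every SWP library lay above every MYC WT library in 5 members (6.25%, against 9.10% of all genes) and below in 15 (18.8%, against 15.5%).

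The replicate numbers were taken to pair SWP with both other lines. With the number as a block 16 members passed the adjusted p (20%, against 20.2% of all genes), 11 lower and 5 higher. The blocked fit added PRPF31, SF3A3, PRPF8, PRPF6, HNRNPA1L3, HNRNPA3 and LSM5 on the lower side and SRSF8, PRPF19 and SF3B2 on the higher side. PRPF8 stood at 80.1% of MYC WT (log2 fold change -0.32 ± 0.10, limma adjusted p = 0.0622 without the block and 0.0187 with it). PRPF19, the ubiquitin ligase of the activated spliceosome, read 25287, 19063 and 24753 in MYC WT, 25663, 26033 and 27561 in MYC MUT, and 32960, 25719 and 28037 in SWP (0.33 ± 0.12, limma adjusted p = 0.0997 without the block and 0.0118 with it). The members' median log2 fold change in SWP was -0.04, beside -0.06 for all genes, and it was 0.01 with equal totals.

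The third comparison tested MYC MUT against SWP directly. These lines differ in whether the inserted sequence folds into a G4, in that sequence itself and in their clones. The comparison cannot tell these differences apart. Here 5 of 80 members were called (6.25%, against 20.6% of all genes), 2 lower and 3 higher in MYC MUT (8.31% and 12.3% of all genes). Among the 1141 genes with a mean of at least 13200 normalized counts 9.64% were called, beside 2 of the 40 members at that level. Leaving out SWP replicate 2 gave 3. SF3B5 was lower at 59.4% of SWP (log2 fold change -0.75 ± 0.09, limma adjusted p = 0.000117) and HNRNPUL1 at 69.7% (-0.52 ± 0.065, limma adjusted p = 0.000108). PRPF6 was higher at 144.1% (0.53 ± 0.07, limma adjusted p = 0.000154), U2AF1 at 210.2% (1.07 ± 0.18, limma adjusted p = 0.000888) and SRSF6 at 151.4% (0.65 ± 0.22, limma adjusted p = 0.0358).

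SF3B5 and U2AF1 were called under all 20 alternatives run, HNRNPUL1 under all but 2 and PRPF6 under all but 3. SRSF6 overlapped between these lines, since SWP replicate 1 (24544) exceeded MYC MUT replicate 3 (24271), and 9 of 20 alternatives ended its call, among them edgeR (adjusted p = 0.0622) and DESeq2 (adjusted p = 0.125). Equal library totals gave 4 members higher and 1 lower, and edgeR gave 1 higher and 3 lower.

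Without the fold threshold 28 members passed (35%, against 38.0% of all genes). Of these, 17 were lower in MYC MUT (21.2%, against 17.2%) and 11 were higher (13.8%, against 20.9%). With the replicate block the count was 43 (53.8%, against 50.4% of all genes). Leaving out MYC MUT replicate 1 gave 17, MYC MUT replicate 2 gave 18 and MYC MUT replicate 3 gave 16. SNRPD2 (-0.46 ± 0.075), SNRPA1 (-0.47 ± 0.07), HNRNPR (-0.43 ± 0.06), SF3A3 (-0.40 ± 0.06) and SNRPA (-0.35 ± 0.09) were among the lower genes. SRSF12 (0.49 ± 0.09), LSM3 (0.38 ± 0.08), PRPF8 (0.37 ± 0.10) and SNRPB2 (0.35 ± 0.10) were among the higher. The groups did not overlap in 28 members on the lower side (35%, against 23.0% of all genes) and in 15 on the higher side (18.8%, against 29.2%). Within the U2 particle SNRPA1 and SNRPB2, whose products bind it as a pair, thus passed in opposite directions. The median over members was -0.06, beside 0.04 for all genes.

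The splicing genes also varied between libraries of 1 line, and in MYC WT and SWP the SR genes had the largest median spread of any role. Replicate 1 gave the highest value of its line for 50 of 80 members in MYC WT (62.5%), 45 in MYC MUT (56.2%) and 55 in SWP (68.8%), where it did so for 37.2%, 35.3% and 39.8% of all genes tested. Among the 12 SR genes it was highest for 10 in MYC WT, 11 in MYC MUT and 11 in SWP. The median SR gene in replicate 1 exceeded the mean of the other 2 libraries by 0.41 in MYC WT, 0.10 in MYC MUT and 0.33 in SWP (log2 levels), while over all genes that difference lay between -0.0057 and 0.0010. The median SD of log2 levels within a line was 0.24 for SR genes in MYC WT and 0.22 in SWP, and 0.06 in MYC MUT. SF3 genes had medians of 0.06, 0.05 and 0.13 in MYC WT, MYC MUT and SWP. What set replicate 1 apart was not tested.

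Together the 84 members took between 2.32% and 2.67% of the normalized counts of a library. The hnRNP genes held between 1.19% and 1.35%, the SR genes between 0.306% and 0.475%, the SF3 genes between 0.249% and 0.283%, and the Sm genes between 0.128% and 0.151%. Divided by the length of the canonical transcript, the highest level in MYC WT was that of HNRNPA2B1 at 58510 normalized counts per kilobase. SNRPD2 and SNRPB followed at 44830 and 40220, and their ranges over the 3 libraries overlapped. In MYC MUT the same measure was 48960 for HNRNPA2B1, 30260 for SNRPD2 and 42330 for SNRPB, so SNRPD2 fell behind SNRPB there, and these 2 did not overlap. Within SF3B the MYC WT levels were 14570 for SF3B6, 13080 for SF3B5, 12380 for SF3B2, 8261 for SF3B1, 4927 for SF3B4 and 4575 for SF3B3. SF3B5 dropped to 7581 per kilobase in MYC MUT while SF3B6 read 16160. These levels depend on which transcript is taken as the length, since canonical models with long trailing sequence, such as that of LSM8 at 12384 bases, lower the figure.

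Spliceosome components whose symbols the rule did not match numbered 82. Of these, 2 were called higher and 6 lower in MYC MUT (21.4% of all genes were called), 0 in SWP (5.13%) and 2 in each direction between MYC MUT and SWP (20.6%). At an adjusted p alone 27, 7 and 25 passed, where 38.4%, 9.97% and 38.0% of all genes did. The largest falls in MYC MUT were SNRNP48 (-0.84 ± 0.07) and RNPC3 (-0.61 ± 0.10), both proteins of the minor spliceosome, and WBP4 (-0.62 ± 0.08). The 2 called higher were CTNNBL1 (0.54 ± 0.08) and SNRNP25 (0.54 ± 0.12), the latter also of the minor spliceosome. Other proteins of that spliceosome went both ways by the adjusted p alone. SNRNP35 and ZMAT5 were higher (0.23 ± 0.07 and 0.23 ± 0.08), and ZRSR2 was lower (-0.35 ± 0.12). SNRNP70, the U1 protein beside SNRPA, changed by -0.22 ± 0.07 (limma adjusted p = 0.0338), and the U5 helicase SNRNP200 did not pass (-0.08 ± 0.07).

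Of 18 genes for snRNP assembly, GEMIN4 was called higher (0.54 ± 0.10) and TGS1 and LSM11 lower (-0.54 ± 0.09 and -0.62 ± 0.13) in MYC MUT. Among all genes 21.4% were called in MYC MUT and 5.13% in SWP. COIL, which encodes the coilin of Cajal bodies, was the 1 call in SWP (-0.90 ± 0.08, limma adjusted p = 4.3e-05), and it changed by -0.20 ± 0.08 in MYC MUT (limma adjusted p = 0.0701). PRMT5, which methylates Sm proteins, and SMN1 and SMN2, of the SMN complex, did not pass in either line. In MYC MUT SMN1 changed by 0.10 ± 0.13 and SMN2 by 0.29 ± 0.13. How any reads shared by SMN1 and SMN2 were counted was not given in the sources used here.

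Among 25 SR-related genes, BCLAF1, CLK2 and SCAF8 were called lower in MYC MUT, by values between -0.56 and -0.53 (21.4% of all genes were called). Of 29 gene entries for other pre-mRNA binding proteins, 2 were called higher and 3 lower in MYC MUT, again beside 21.4% of all genes. NONO (-0.65 ± 0.06) and PCBP3 (1.37 ± 0.17) were among them. MATR3 has 2 entries that differed, 1 called lower (-0.89 ± 0.11) and 1 that did not pass (0.15 ± 0.11). PTBP1 did not pass (-0.11 ± 0.09), and PTBP2, its neuronal paralog, was lower by the adjusted p alone (-0.42 ± 0.08, limma adjusted p = 0.00134).

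Of the 32 regulators of tissue-specific splicing listed, 24 were tested. Among them 6 were called higher and 5 lower in MYC MUT (45.8%, against 21.4% of all genes). NOVA2, a neuronal regulator, rose from a mean of 74 to 1334 normalized counts (log2 fold change 4.19 ± 0.28, limma adjusted p = 2.12e-06), and it did not pass in SWP (0.09 ± 0.28). CELF2 was called higher in both edited lines, by 1.99 ± 0.08 in MYC MUT and 0.81 ± 0.08 in SWP. ESRP2, an epithelial regulator, was called lower in both, with log2 fold changes of -1.02 ± 0.26 in MYC MUT and -2.83 ± 0.26 in SWP. SRRM4 was at or near 0 in every library. Beside these, the 5 neuron markers summed to between 662 and 860 normalized counts in MYC WT, 1262 and 1347 in MYC MUT, and 795 and 837 in SWP, and 3 of the 4 tested (SNAP25, MAP2 and RBFOX3, which is also among the 24) were called higher in MYC MUT. Fibroblast markers summed to between 1068 and 1246, 1887 and 1986, and 779 and 1173 in the same order, mostly COL1A1. Leukocyte markers stayed at or below 126.4 and hepatocyte markers at or below 24.35. Their part in the members' changes was not tested.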

How the data were processed

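Poly(A) RNA of 9 HEK293T libraries was made into strand-specific libraries and sequenced, and the authors aligned the reads with bwa mem to hg38 (BWA 0.7.17-r2188 and cutadapt 1.18 in the submitters' processing notes), an aligner that does not split reads at introns. The study's methods state that the mapped reads were then deduplicated with Picard MarkDuplicates. What this step did to the counts of abundant or short genes was not tested. The counting tool and its strand setting were not given in the sources used here. The authors deposited 1 signal value per gene and library, the count of reads divided by a DESeq2 size factor. These values resolved to whole reads for 100% of entries (tolerance 0.001), from 65024354 to 98497026 reads on genes per library.

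From those values, log2(value + 1) was fitted with limma 3.58.1 (R 4.3.3, eBayes with trend) over all 9 libraries for the 20884 genes with a mean of at least 10, with Benjamini-Hochberg adjustment over all of them. A gene was called at an adjusted p below 0.05 and an absolute log2 fold change above 0.5, the thresholds of the study's methods. edgeR 4.0.16 and DESeq2 1.42.0 on the recovered reads were alternatives, as were other pseudocounts, filters, scalings and each library left out. The scripts were tested on simulated data. Libraries were grouped by their labels. The 3 libraries of a line are labelled as biological replicates, but nothing says that they came from separate clones, so p-values measure the spread between these libraries only.

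Members and gene lists were chosen with earlier results of these data known. Values in every library are given for the members called in any comparison with a mean of at least 50 and for a fixed set of core factors, and PRPF4, PRPF19, LSM8, SRSF9 and SNRPF were added after their values were seen. Library replicates were checked for pairing by correlating the deviations of same-numbered libraries from their line means. The correlations were 0.555, 0.403 and 0.102 between MYC WT and SWP and 0.333, 0.241 and 0.232 between MYC MUT and SWP, so these were taken as paired. Between MYC WT and MYC MUT they were 0.328, 0.146 and 0.049, positive but weaker, and these were not taken as paired. MYC WT replicate 3 correlated more with replicate 2 than with replicate 3 of both MYC MUT (0.154) and SWP (0.166), so the line between paired and not paired is a matter of degree. Symbols, coordinates and exons were from GENCODE and promoters from RefSeq (GRCh38.p14). Other data types of the series were not used here.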

Additional observations from a re-analysis of the deposited data

Results flagged for a closer look

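The effect of editing relative to MYC WT differed between MYC MUT and SWP for 5 of 80 splicing genes by the direct limma test of the difference with a fold threshold of 0.5 on the log2 scale (20.6% of all genes passed both), and 28 passed the adjusted p alone (38.0% of all genes). The difference in log2 level, MYC MUT minus SWP, was -0.75 for SF3B5 (limma adjusted p = 0.000117), with every MYC MUT library below every SWP library. It was -0.52 for HNRNPUL1 (limma adjusted p = 0.000108), again without overlap. PRPF6 differed by 0.53 (limma adjusted p = 0.000154), higher in all 3 MYC MUT libraries. U2AF1 differed by 1.07 (limma adjusted p = 0.000888), higher in all 3 MYC MUT libraries on counts that a second genomic copy makes uncertain. SRSF6 differed by 0.65 (limma adjusted p = 0.0358), with 1 SWP library inside the range of MYC MUT.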

How the results depend on the processing

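Most results kept their direction and their side of the threshold under the alternatives run. In MYC MUT against MYC WT the 6 members called became 27 at an adjusted p alone and 0 at an absolute log2 fold change over 1, and between 3 and 7 when 1 library was left out, the 3 without MYC WT replicate 3. In SWP against MYC WT the 1 call became 6 and 0 under those thresholds, 0 when only the compared lines were fitted, and between 0 and 1 with 1 library left out (0 without MYC WT replicate 3 or SWP replicate 2). In MYC MUT against SWP the 5 calls became 28 and 1, and between 3 and 6 with 1 library left out, the 3 without SWP replicate 2. With 1 library left out, the members' median in SWP ran from -0.12 without MYC WT replicate 2 to -0.0027 without MYC WT replicate 1. It was above zero with equal totals (0.01), edgeR (0.0078) and DESeq2 (0.0072). MYC in SWP ran from -0.29 to 0.12, the last, reversed in sign, without SWP replicate 1 (limma adjusted p = 0.619). The causes were not tested.

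With the replicate number as a block the same members were called in all 3 comparisons. At an adjusted p alone 38 of 80 then passed in MYC MUT against MYC WT (50.5% of all genes did), 28 lower and 10 higher. Same-numbered libraries of these lines correlated positively but more weakly than those of the other pairs of lines, and they were not taken as paired. The other blocked counts stand in the report. Genes at about 100 counts, such as U2AF1, carry wider errors than the abundant members.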
